A study of Mus musculus with 4 samples.

Results

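Spectraplakins, plectin, nesprins and ankyrin-G are giant proteins that tie the parts of the cytoskeleton to each other, to the nucleus and to the membrane. All start sites whose gene symbol was Dst, Macf1, Plec, Syne1, Syne2 or Ank3 were taken from the table, 174 sites of 42207 in all and 6 genes of 9838 with a site. Whole transcriptome start site sequencing (WTSS-seq) had been run on total RNA of adult skeletal muscle, the gastrocnemius of male mice. It compared 2 AMPKα2-/- C57BL/6 mice (KO), about 8 weeks old, with 2 WT controls, 1 library per mouse; the age of the WT mice is not given in the sources used here. Prkaa2 encodes AMPKα2, one of the catalytic subunits through which the AMP-activated protein kinase responds to low cellular energy. The knockout is carried by every cell of the mouse, and the tissue was taken whole, so fewer cells of a type and less RNA per cell cannot be told apart.

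Dystonin (Dst) and Macf1 are the spectraplakins, which bind actin filaments at one end and microtubules at the other. Plectin (Plec) anchors desmin filaments at the Z-discs and costameres of the muscle fibre. Nesprin-1 (Syne1) and nesprin-2 (Syne2) sit in the outer nuclear membrane and hold the nuclei of the fibre in place. Ankyrin-G (Ank3) fastens membrane proteins to the spectrin skeleton. All of these genes are long and are known for several promoters and tissue-specific isoforms. The label of spectraplakins and plectin covers Dst, Macf1 and Plec by descent, while the nesprins share spectrin repeats with them and Ank3 has ankyrin repeats.

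In WTSS-seq a read marks the 5′ end of an RNA or of a fragment of one. Each site carries a class code: i for a site wholly inside an intron, c for a site contained in annotated exons, e for a site that reaches from an exon into an intron, o for another exonic overlap and x for an exon on the opposite strand. Of the 174 sites, 78 were class i, 81 class c, 12 class e, 2 class o and 1 class x. Intronic sites made up 44.8% of them, against 52.0% of all sites with a gene. Intronic sites were narrow, with a median width of 7 bp and a range of 1 to 52 bp, while class c sites had a median of 33 bp and reached 497 bp. The same contrast held over all genes, with medians of 7 and 25 bp.

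The libraries held 2900279 and 2303294 reads (KO replicates 1 and 2) and 1300069 and 1568945 reads (WT replicates 1 and 2), so both KO libraries were deeper. Every listed site had at least 10 reads over the 4 libraries, a minimum that favours sites present in the deeper libraries. Of the 174 sites, 16 (9.2%) were at 0 in both WT libraries and 3 (1.72%) in both KO libraries, against 11.8% and 2.29% of all sites. Prkaa2 itself had normalized counts of 149 and 183 in KO against 153 and 186 in WT. The deletion removes part of the catalytic domain and not the whole gene, so these reads do not check the labels. All 10 skeletal muscle markers had a site, and none passed the test.

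The RefSeq (GRCm38.p6) promoter windows used here run from 250 bases before to 50 bases after an annotated start. There were 7 for 4 of the 6 genes: 2 for Dst, 1 for Macf1, 3 for Syne1 and 1 for Syne2. They do not cover every annotated start: the annotated 5′ end of Dst, at chr1:33907888, has no window. None of the 7 windows held a site, while 10.5% of 8911 windows of all genes with a site did. The nearest site downstream lay 1658 bp to 117236 bp from the annotated start. The 120 bases before both Dst starts with a window are shown because the sites of Dst that differed between KO and WT lay between them. Those before the outermost start of Syne1 are shown because no site followed it for 117236 bp. Capitals mark GGGCGG, the core of a GC box, and CAGCTG, an E-box, searched on both strands.
Dst first start, chr1:34011475-34011594, plus strand: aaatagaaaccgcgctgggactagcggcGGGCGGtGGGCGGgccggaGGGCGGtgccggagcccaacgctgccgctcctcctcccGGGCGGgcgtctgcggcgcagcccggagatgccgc
Dst second start, chr1:34160140-34160259, plus strand: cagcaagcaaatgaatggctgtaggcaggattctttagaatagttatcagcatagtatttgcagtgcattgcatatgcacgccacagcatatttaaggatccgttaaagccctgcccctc
Syne1 outermost start, chr10:5550693-5550812, minus strand: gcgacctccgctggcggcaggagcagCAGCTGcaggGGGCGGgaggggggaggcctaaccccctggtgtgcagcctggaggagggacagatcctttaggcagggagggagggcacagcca
GGGCGG stood 4 times in the 250 bases before the first Dst start, 2 times before the outermost Syne1 start and 3 times before the Syne2 start, against 32.7% of all 32851 windows that hold it at least once. CAGCTG stood once before the outermost Syne1 start and once before the Syne2 start, and 13.0% of all windows hold it. The second Dst window held neither, but 1 CCAAT outside the printed bases, a motif in 33.8% of windows. TATAAA was found once, before the middle Syne1 start, and is in 12.4% of windows. GC content split the windows in the same way, at 68.8% before the first Dst start and 45.2% before the second, 68.0% before the outermost Syne1 start and 70.0% before the Syne2 start. These matches describe the letters of the windows only.

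Summed over all sites, none of these genes passed the test between KO and WT. Of the 6 genes, 5 had enough reads for the test (DESeq2 Wald test, Benjamini-Hochberg adjusted p under 0.1) and 0 were called, where 2.67% of 4688 genes were called, 1.71% higher in KO and 0.96% lower. At the unadjusted level the smallest p among them was 0.140, for Ank3, so none of the 5 had a p under 0.05, and edgeR's quasi-likelihood test called 0 as well (background 0.883%). The values that follow are read counts divided by DESeq2 size factors. Whether the groups of a gene overlap is given as a description only. There were 2 libraries against 2, and the share of all genes whose summed counts separate was not counted.

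Ank3 had normalized counts of 1230 and 1853 in KO against 1165 and 811 in WT, so both KO libraries lay above both WT libraries. The difference was 0.64 on the log2 scale (SE 0.43, 95% interval -0.21 to 1.49, DESeq2 adjusted p = 0.751). Dst had 1082 and 1455 in KO against 1077 and 1307 in WT, with overlapping groups and a log2 fold change of 0.09 (SE 0.41, interval -0.72 to 0.90, adjusted p = 0.992). Plectin had 571 and 1036 in KO against 595 and 696 in WT, again overlapping, with a log2 fold change of 0.32 (SE 0.46, adjusted p = 0.951). Its KO values differed from each other more than the groups did.

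Macf1 had normalized counts of 207 and 250 in KO against 139 and 194 in WT. The groups did not overlap, and the log2 fold change was 0.45 (SE 0.49, interval -0.51 to 1.42, adjusted p = 0.926). Syne1 had 123 and 136 in KO against 51.9 and 98.4 in WT, also without overlap (log2 fold change 0.78, SE 0.59, interval -0.38 to 1.94, adjusted p = 0.825). Syne2 was close to the limit of the assay, with 21 and 8 raw reads in KO against 2 and 7 in WT over 3 sites, and got no adjusted p. With this depth a change of Syne2 was not detectable.

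**Figure D1:**
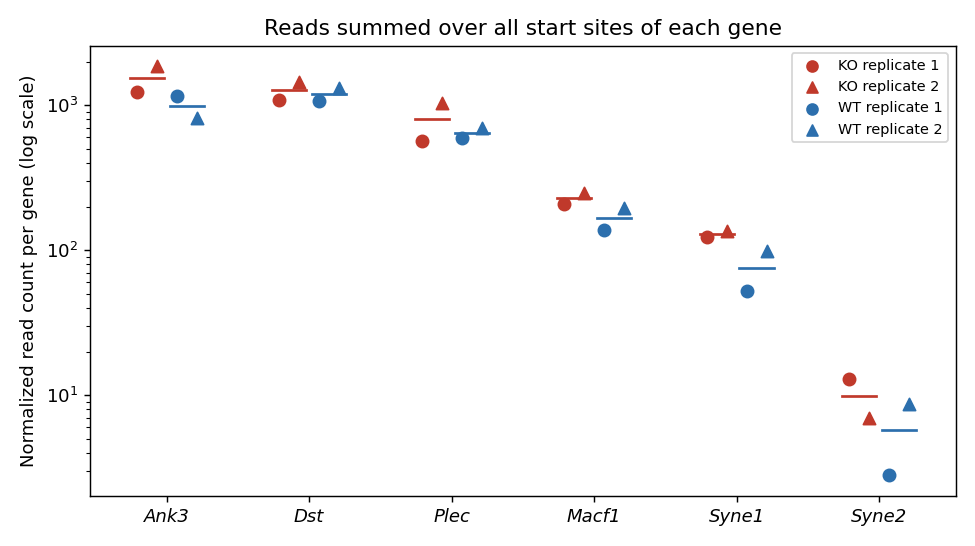
Normalized read count of each gene summed over its sites (log scale), 1 point per library, circles for replicate 1 and triangles for replicate 2, with bars at the group means. Ank3, Dst and Plec had the most reads and Syne2 the fewest, and the KO and WT points of Dst, Plec and Syne2 overlapped.

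Per 100 kb of annotated gene, plectin had the highest level, with mean normalized counts of 1330 in KO and 1068 in WT. Dst (316 and 297) and Ank3 (312 and 200.03) followed, and their libraries overlapped in level. Macf1 (67.6 and 49.3), Syne1 (24.4 and 14.2) and Syne2 (3.39 and 1.97) came next, each below every library of the gene before it. The density of sites also differed, from 61.3 sites per 100 kb in Plec to 1.03 in Syne2. Such per-length values depend on introns as well as exons: Plec spans 60.41 kb and Syne1 530.5 kb.

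The sum hides an uneven distribution. To weigh the libraries equally, the reads of each site were divided by the library total and averaged over the libraries. On that scale a single site gave over 50% of the Ank3 signal. For Dst and for Macf1 3 sites did so, and for Plec and for Syne1 5. The maps of Dst, Ank3 and Plec show these few tall sites among many small ones.

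**Figure D2:**
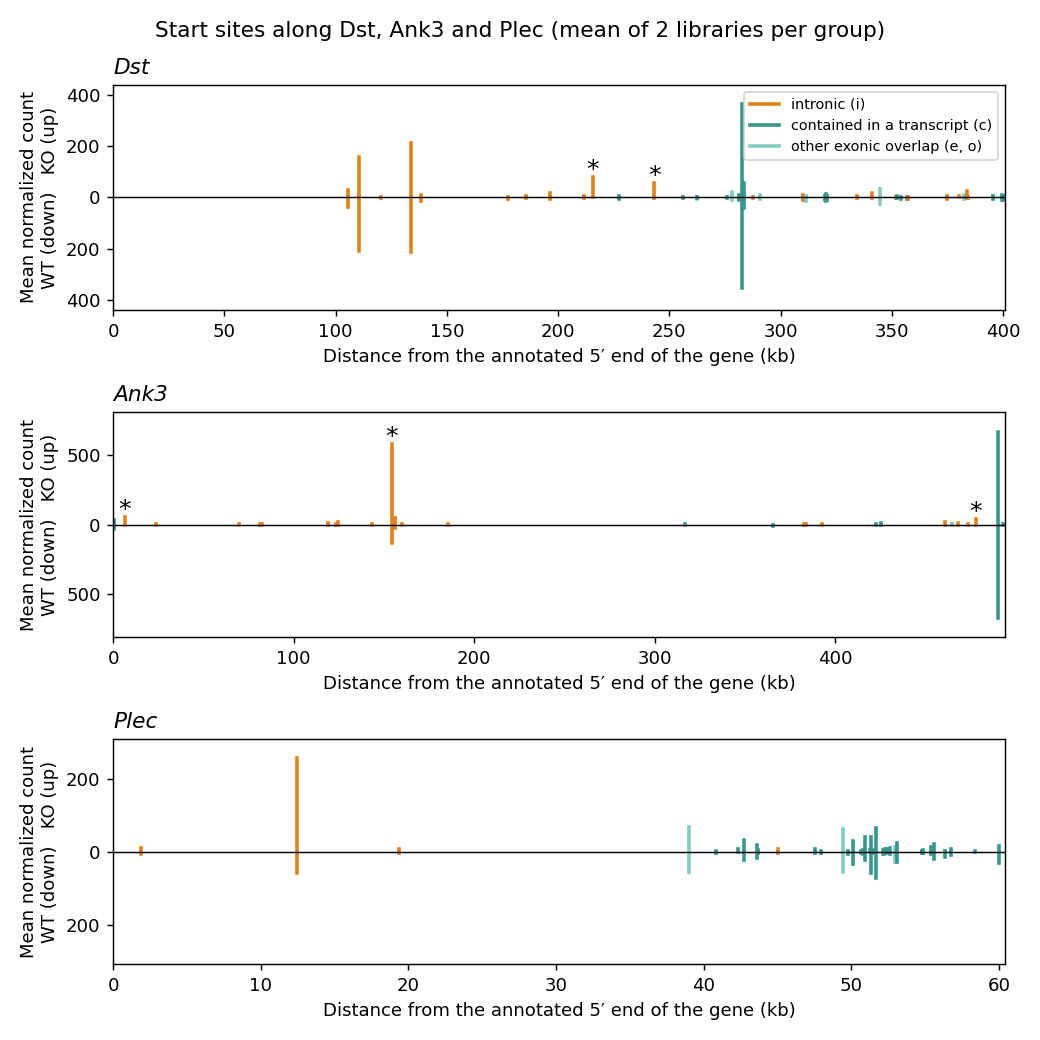
Start sites on the gene's own strand along Dst, Ank3 and Plec: distance from the annotated 5′ end (kb) against mean normalized count, KO upward and WT downward, intronic sites in orange and exonic classes in green. Asterisks mark the 5 sites with an adjusted p under 0.1. Tall exonic sites of Dst and Ank3 are mirrored in the groups, while the marked intronic sites are taller in KO.

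At the level of single sites, 47 of the 174 passed DESeq2's filter on the mean count. Of these, 5 differed between KO and WT at an adjusted p under 0.1, all were higher in KO, and all were intronic: 2 in Dst and 3 in Ank3. Over all tested sites 3.21% differed. The 5 sites are 10.6% of those tested in these genes, where 2.33% of 11112 sites were higher. None was lower, where 0.882% of all sites were. Among the tested intronic sites 5 of 19 were higher (26.3%, background 3.28%), and among the others 0 of 28 (background 1.57%), none of them with an unadjusted p under 0.05. A site with reads in the KO libraries only can pass the filter, so these counts cover the tested sites and not all 174. Under edgeR's quasi-likelihood test 1 of 48 sites was called (background 0.427% higher in KO), and 6 had an unadjusted p under 0.05, all intronic.

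The median log2 fold change was 1.85 over the 19 tested intronic sites and -0.03 over the 28 others, against 0.42 and -0.10 over all tested intronic and other sites. Both KO libraries lay above both WT libraries at 11 of the 19 intronic sites, where 30.3% of all tested intronic sites did, and at 4 of the 28 others, where 17.1% did. Together this was 15 of 47, against 23.0% of all tested sites. Both lay below at 0 intronic sites (background 11.4%) and at 6 others (22.3%), against 17.4% of all tested sites. Sites of one gene are not independent of each other. A site can pass the filter on the mean count through its KO reads, as chr1:34123348-34123369 in Dst did with 0 reads in WT. Such a site enters with a log2 fold change above 0, so these medians and counts are a description and not a test. The background sites passed the same filter. The intronic sites were also the narrow ones, with a median width of 8 bp against 91 bp for the others.

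**Figure D3:**
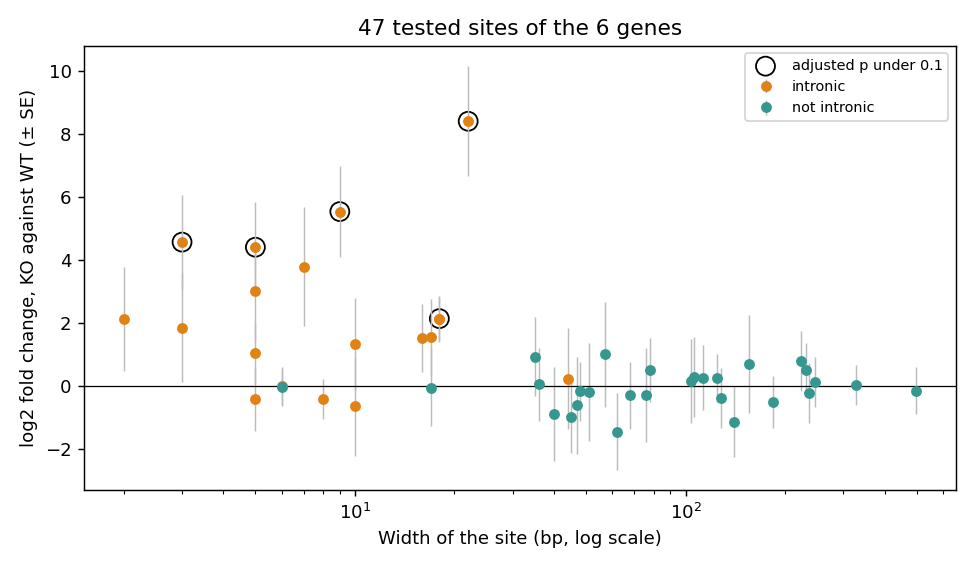
Width of each of the 47 tested sites (bp, log scale) against its log2 fold change between KO and WT, bars showing the SE. Intronic sites (orange) are narrow and reach a log2 fold change of 8.40, other sites (green) are mostly wide and lie around 0, and rings mark the 5 called sites, 3 to 22 bp wide.

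Both Dst sites lie in the middle of the gene, downstream of the first of the starts shown above and upstream of the second. The annotated 5′ end of the gene, for which no window was given, lies further upstream. At chr1:34123348-34123369, a 22 bp site, 177 and 46 reads were counted in KO against 0 and 0 in WT. This site, 111.8 kb after the first start and 36.91 kb before the second, was at least 20.7-fold higher in KO, taking 3 reads per WT library as the floor (DESeq2 adjusted p = 0.000361, edgeR adjusted p = 0.0600). Without KO replicate 1 its adjusted p was 0.217, with a fitted log2 fold change of 7.46 against 8.40.

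At chr1:34151090-34151098, 9.17 kb before the second start, 108 and 49 reads were counted in KO against 0 and 2 in WT. The ratio of normalized reads was 46.9, with a 95% counting interval of 12.8 to 391 (DESeq2 adjusted p = 0.0127, edgeR adjusted p = 0.106). Leaving out either KO library took its DESeq2 adjusted p above the threshold, to 0.597 and 0.726, while the fitted log2 fold change was 5.19 and 5.85, against 5.54 with all libraries. Together these 2 sites held 16.1% and 5.71% of the Dst reads in KO against 0 and 0.191% in WT.

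The 3 Ank3 sites are spread over the gene. The one with the most reads and the smallest ratio, chr10:69687687-69687704, lies 154 kb from the annotated 5′ end. It had 477 and 992 reads in KO against 126 and 81 in WT. Its ratio was 4.24 (counting interval 3.66 to 4.93), with a log2 fold change of 2.14 (SE = 0.68, adjusted p = 0.0717, edgeR adjusted p = 0.249). Unlike the Dst sites it was well covered in both groups, and the groups did not overlap. Its log2 fold change depended on the libraries: it was 2.72 without KO replicate 1 (adjusted p = 0.242), 1.23 without KO replicate 2 (1.00), 2.65 without WT replicate 1 (0.0587) and 1.73 without WT replicate 2 (0.459).

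Near the other end, 478 kb along, chr10:70011490-70011492 had 23 and 82 reads in KO against 0 and 3 in WT, a ratio of 20.9 (interval 6.96 to 103, DESeq2 adjusted p = 0.0811). Leaving out any 1 library took its adjusted p to between 0.136 (without WT replicate 2) and 1.00 (without KO replicate 2), and its log2 fold change to between 3.07 and 7.39, against 4.57 with all. The site chr10:69539816-69539820, 6.33 kb from the 5′ end, had 158 and 6 reads in KO against 3 and 1 in WT. Its ratio of 24.5 (interval 9.39 to 91.0, DESeq2 adjusted p = 0.0839) rests on KO replicate 1: without that library the log2 fold change was 1.02 in place of 4.41, and without any of the others the adjusted p was 0.151 to 0.459. The called Ank3 sites together held 32.7% and 50.9% of the gene's reads in KO against 15.5% and 13.1% in WT.

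A plectin site lay just outside the threshold. At chr15:76218885-76218902, an intronic site 12.5 kb into the gene and the one with the most Plec reads, 205 and 441 reads were counted in KO against 47 and 47 in WT. The ratio was 4.11 (counting interval 3.30 to 5.15) and the log2 fold change 2.12 (SE = 0.72, adjusted p = 0.101). The next site in order, chr1:34249191-34249197 in Dst, had an adjusted p of 0.484. Intervals and floors cover counting error only, since PCR reads without molecular identifiers are not independent molecules.

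**Figure D4:**
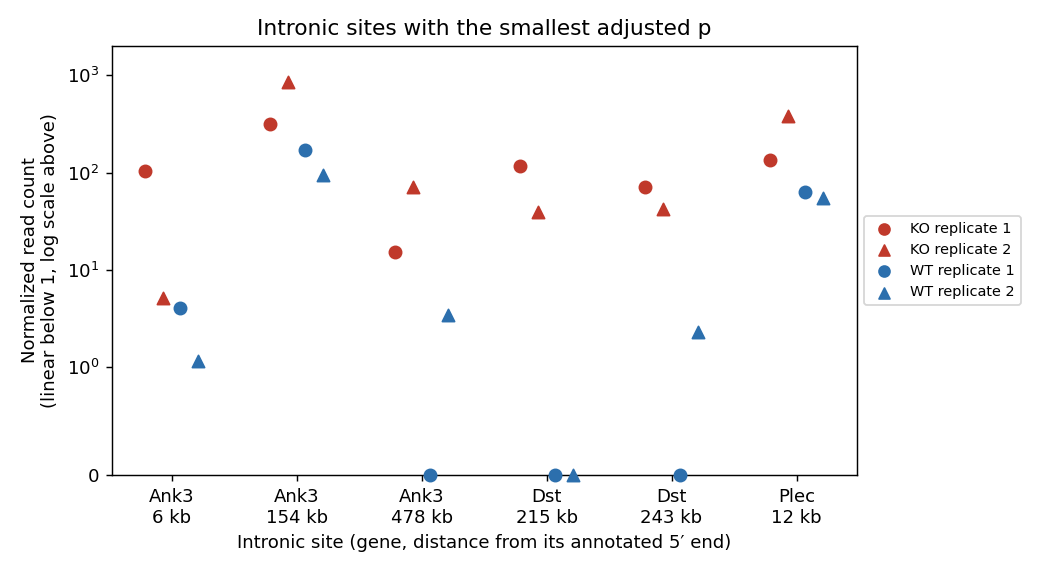
Normalized read count per library at the 5 called sites and the plectin site just outside the threshold (linear below 1, log scale above), each named by gene and distance from the annotated 5′ end in kb. In all 6 both KO points lie above both WT points; at the Ank3 site 6 kb from the 5′ end KO replicate 2 is close to the WT points.

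None of the tall sites of exonic class was called. The leading Ank3 site, chr10:70023954-70023959, lies 490 kb along the gene and had 1017 and 771 reads in KO against 606 and 459 in WT. In normalized counts this is 667 and 665 against 822 and 530, overlapping, with a log2 fold change of -0.02 (SE 0.57). Its share of the gene's reads was 50.5% and 36.4% in KO against 72.9% and 70.5% in WT, without overlap. With this site left out of the sum, an alternative chosen after seeing the data, Ank3 had a log2 fold change of 1.60 (DESeq2 adjusted p = 0.0166).

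The leading Dst site, chr1:34190641-34190967, is 327 bp wide and had 390 and 548 reads in KO against 185 and 390 in WT (log2 fold change 0.05, SE 0.64). It stands in a run of 12 exonic sites over 2648 bp, with no gap above 1000 bp, which held 32.0% and 40.4% of Dst reads in KO against 30.9% and 45.9% in WT. The run summed to normalized counts of 476 ± 147 in KO against 439 ± 166 in WT (SD over n = 2). Not all intronic sites of Dst were taller in KO. The sites next in reads, chr1:34041779-34041784 and chr1:34018364-34018371, are intronic and had log2 fold changes of -0.00473 and -0.41. Their reads were 269 and 285 in KO against 171 and 166 in WT at the former, and 222 and 194 against 188 and 140 at the latter.

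Plectin had its largest group of exonic reads in a run of 17 sites over 3732 bp, between 49 and 53 kb from the 5′ end. The run summed to 325 ± 43.1 normalized counts in KO against 339 ± 47.1 in WT (SD over n = 2), and none of its 7 tested sites was called. Its widest member, chr15:76179228-76179724, spans 497 bp and had 106 and 70 reads in KO against 51 and 64 in WT. An exon-to-intron site at chr15:76192255-76192378 had 93 and 86 against 44 and 46. The log2 fold change of the Plec sum was -0.17 without the leading intronic site at chr15:76218885-76218902, against 0.32 with it.

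In Macf1 the site with the most reads was intronic, chr4:123386362-123386377, with 117 and 76 reads in KO against 2 and 40 in WT (log2 fold change of 1.53 with an SE of 1.07, DESeq2 adjusted p = 0.839). The WT libraries differed more from each other there than WT replicate 2 did from KO. An exonic site at chr4:123475293-123475420 had 50 and 28 reads in KO against 20 and 40 in WT, and the intronic site nearest the 5′ end, chr4:123659186-123659202, had 25 and 52 against 11 and 5. On the opposite strand, within an exon, chr4:123387291-123387293 had 13 and 16 reads in KO against 1 and 0 in WT, too few for the test.

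Syne1 split by class. Its 5 exonic sites in a run of 875 bp, 529 kb from the 5′ end, had summed normalized counts of 35.4 and 44.9 in KO against 33.9 and 57.8 in WT, overlapping. They held 26.9% and 33.3% of Syne1 reads in KO against 67.6% and 63.3% in WT. The leading site among them, chr10:5020764-5020825, had 14 and 11 reads in KO against 10 and 32 in WT, and its neighbour chr10:5020909-5021014 had 25 and 18 against 8 and 13. Away from this run, an intronic site on the opposite strand at chr10:5182216-5182218 had 11 and 21 reads in KO against 2 and 5 in WT.

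The 3 Syne2 sites had few reads. The intronic site chr12:75945272-75945282 had 2 and 7 reads in KO against 0 and 5 in WT, and the site nearest the 5′ end, chr12:75899158-75899179, had 7 and 1 against 2 and 2. The last, chr12:75967154-75967156, had all of its 12 reads in KO replicate 1.

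How near the first site lay to the annotated 5′ end differed widely. Ank3 began with an exonic site 0.63 kb in, chr10:69534116-69534163, with 47 and 34 reads in KO against 25 and 29 in WT. Plectin began 1.85 kb in, with an intronic site of 13 and 13 against 7 and 4 reads. In Dst the first site stood 105 kb from the gene's outermost end, 1658 bp after the first RefSeq start shown above, with 19 and 53 against 27 and 35 reads. Syne1 had no site for 117 kb, where one with 7 and 19 reads in KO against 2 and 0 in WT stood.

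Whether a site moved against the other sites of its gene was tested as start site usage (edgeR diffSpliceDGE, Simes p per gene). Dst was the 1 of 5 genes tested that was called (adjusted p = 0.0221), where 1.77% of 2145 genes were. Plec (0.910), Ank3 (0.332), Macf1 and Syne1 (both 1.00) were not. By single sites 2 of 48 were called, the Dst sites described above, where 0.721% of 7910 sites were. These 2 sites had 0 and 0, and 0 and 2 reads in WT, so they passed the read filter of this test through KO. A site that enters in this way leans toward KO from the start, so the Dst call is a description. The background sites passed the same filter. The Dst call was lost without KO replicate 1 (adjusted p = 0.283), without WT replicate 1 (0.828) and without WT replicate 2 (0.793).

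The share of reads at intronic sites brings the classes together. In Ank3 it was 46.1% and 59.8% in KO against 21.7% and 22.1% in WT. Syne1 had 59.7% and 51.3% against 21.6% and 17.7%, Macf1 67.3% and 65.7% against 37.4% and 45.5%, and Plec 24.9% and 40.1% against 13.7% and 10.4%. In these 4 genes both KO libraries lay above both WT libraries, by 20.5 (Plec) to 35.8 (Syne1) percentage points on the means. With 2 libraries against 2 an exact two-sided permutation test cannot go below p = 0.333. The Syne1 shares rest on 37 and 79 reads in WT. They count the intronic site on the opposite strand, chr10:5182216-5182218, with 11 and 21 reads in KO against 2 and 5 in WT.

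In Dst the share did not separate the groups, with 57.5% and 45.9% in KO against 56.1% and 39.4% in WT, a difference of 3.97 points. There the replicate 1 libraries of both groups were the high ones. Over all chromosomal reads of genes, replicate 1 was likewise higher, with 38.6% against 30.3% intronic in KO and 35.2% against 27.6% in WT. To leave out ribosomal RNA, all symbols starting with Rn or n-R were dropped there, which also drops other genes. Syne2, with 38 reads in all, gave 9.52% and 87.5% against 0% and 71.4%, which at this depth shows no pattern: the 0% is 0 of 2 reads, with a 95% Wilson upper limit of 65.8%.

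Across 1883 genes with intronic and other sites and at least 20 reads in each library, 26.9% had both KO shares above both WT shares, and 189 genes had both below. Of the 5 genes described here that met these conditions, 4 had both above and 0 both below. The median difference over those genes was 2.59 points, the upper quartile 10.3 points, and 10.5% of them differed by more than 20 points. Depth, which was higher in both KO libraries, moved with the groups; its part in the intronic shares was not tested.

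**Figure D5:**
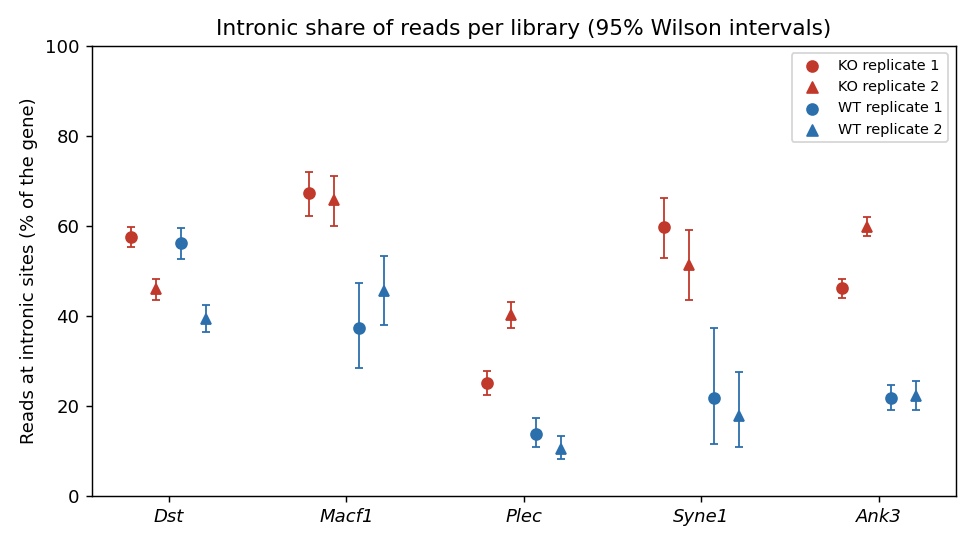
Percent of each gene's reads at intronic sites, 1 point per library with its 95% Wilson interval (counting error only), circles for replicate 1 and triangles for replicate 2. KO (red) lies above WT (blue) in Macf1, Plec, Syne1 and Ank3, and the groups overlap in Dst.

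Without intronic sites, an alternative chosen after seeing the data, the log2 fold changes of the summed counts were 0.20 for Dst, -0.11 for Macf1, 0.09 for Plec, 0.17 for Syne1 and 0.05 for Ank3. With them, as given above, they were 0.09, 0.45, 0.32, 0.78 and 0.64.

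Genes that work with these proteins were followed in 7 lists of 72 genes, of which 58 had a site and 47 were tested. Among these 47, 1 was higher in KO and 0 were lower, near the 1.71% and 0.96% of all genes tested, and the median log2 fold change was 0.10, against 0.01 over all genes. That 1 gene was Clasp1, a protein of growing microtubule ends. Most of its KO reads came from 1 intronic site of 7 bp, chr1:118513079-118513085, with 2390 and 474 reads in KO against 76 and 19 in WT. Summed over its sites, Clasp1 had normalized counts of 1497 and 481 in KO against 142 and 49.8 in WT (log2 fold change of 3.37 with an SE of 0.61, DESeq2 adjusted p = 1.01e-05, edgeR adjusted p = 0.0689). The groups did not overlap, but its KO libraries lay far apart, and the call was lost without KO replicate 1.

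The 14 genes of microtubule ends and anchoring had 12 tested members. Of these, 11 had a log2 fold change above 0, with a median of 0.62, where 2368 of all 4688 tested genes were above 0. Of the 64 tested sites of this list 8 were higher in KO and 1 was lower, where 2.33% and 0.882% of all tested sites were. All 9 were intronic, as were the called sites of Dst and Ank3. They lay in Clasp1, Clip1, Map4, Pcm1 and Cdk5rap2. A Pcm1 site among them stood on a scaffold outside the chromosomes, with 55 and 44 reads in KO against 0 and 0 in WT. Whether it repeats a locus of chromosome 8 was not tested. The centriolar satellite gene Pcm1 held both directions: chr8:41282910-41282925 had 343 and 89 reads in KO against 0 and 0 in WT, while chr8:41321401-41321407 had 0 and 0 in KO against 144 and 82 in WT. Map4, a microtubule-binding protein, had 2163 and 1369 normalized counts in KO against 707 and 862 in WT (log2 fold change 1.17, DESeq2 adjusted p = 0.168), and Clip1, which rides on growing ends, 949 and 1687 against 436 and 615 (1.32, adjusted p = 0.126).

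The costamere list had 10 tested genes and 0 called, with a median of 0.07, and of its 83 tested sites 2 were higher and 2 lower, beside the same 2.33% and 0.882%. They were in Dmd, the dystrophin gene (normalized counts 2462 and 2469 in KO, 1355 and 1776 in WT, adjusted p = 0.675), and in the sarcoglycan gene Sgcd. Ankyrins, spectrins and adducins had 8 tested genes, 7 of them with a log2 fold change above 0 (2368 of 4688 over all genes) and none called (median 0.31), with Ank1 at 673 and 1832 against 893 and 1094. Intermediate filaments, which plectin anchors, had 4 tested genes and none called (median -0.20), and desmin (Des) stood at 1513 and 2114 against 1334 and 1917. The LINC complex and nuclear envelope list, the nesprins' partners, had 7 tested genes, none called (median -0.27), and its Sun2, which binds nesprins, stood at 59.9 and 38.4 against 56.1 and 104.6. Kinesin-1 and dynein had 5, none called (median -0.30), with Kif5b at 433 and 261 against 387 and 635, and of the other plakins only Ppl could be tested (log2 fold change 0.75, SE 0.76).

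Other cell types of the muscle were followed by their markers. Summed fibroblast markers were 3683 and 3836 normalized counts in KO against 5542 and 5363 in WT, with 0 of 10 genes above a log2 fold change of 0 (2368 of 4688 over all genes) and 1 called lower, Sparc (log2 fold change -1.35, adjusted p = 0.0739). Slow fibre markers summed to 860 and 1146 against 337 and 884, overlapping. Of 5 tested, 4 had a log2 fold change above 0 (2368 of 4688 over all genes), with a median of 0.73, and 0 were called. Myl2 had no site. Endothelial markers summed to 297 and 324 against 266 and 254, without overlap, but the list did not move as one. Of 4 tested, 2 had a log2 fold change above 0 (2368 of 4688 over all genes), and 0 were called. Flt1 made up most of the sum (236 and 175 against 146 and 146). Pecam1 went the other way (15.9 and 6.99 against 29.4 and 33.6). Adipocyte (6011 and 3068 against 6192 and 3646) and smooth muscle markers (39.1 and 128 against 65.9 and 63.5) overlapped. Most of the adipocyte sum was Fabp4 (5792 and 2861 against 5720 and 3197). Of 5 tested adipocyte markers, 1 had a log2 fold change above 0 (2368 of 4688 over all genes), and 0 were called. Scd1 stood at 145 and 131 against 355 and 330 (DESeq2 adjusted p = 0.146). Blood and immune markers were 47.6 and 76.9 against 184 and 92.2. The part of these differences in the values above was not tested.

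The genes whose libraries ran most like each member were found by the mean absolute difference of centred log2 counts over the 4 libraries, among 3906 genes (3907 for Syne2). Nearest to Plec was Ubr4 (0.0202), to Dst Pptc7 (0.0264), to Syne1 Klhl33 (0.0400), to Ank3 Tor1aip1 (0.0421), to Macf1 Hmbox1 (0.0432) and to Syne2 Trib1 (0.0713). With 4 libraries many genes run alike, and no test was made.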

How the data were processed

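WTSS-seq libraries were made by ribosomal RNA depletion, template switching at the 5′ end and PCR, and sequenced on an Ion PGM. The authors deposited 1 table of raw read counts per start site for 4 libraries on build GRCm38.p5; aligner and clustering settings for these libraries are not given in the sources used here. Every sample column of the table was used. Groups and replicate numbers came from the labels. Sites were tested with DESeq2 1.42.0 in R 4.3.3 (Wald test, KO against WT, median-of-ratios size factors, independent filtering at mean counts of 8.763 for sites and 16.53 for genes, Benjamini-Hochberg adjusted p under 0.1 over all tested rows, as in the study's methods). Genes were tested on counts summed over their sites. Start site usage was tested with diffSpliceDGE in edgeR 4.0.16, and edgeR's quasi-likelihood test was the main alternative. All fits covered the whole table and were tested on simulated data first. The floor was 3 counts per library. Intervals of shares are Wilson, of ratios exact. Named were all called sites, the 3 sites with the most reads and the first site of each gene; of related genes, every called gene, every gene with a called site and up to 2 per list with the most reads. The 6 genes, the lists and the markers were chosen with earlier results of these data known; 1 marker list is not reported here. Alternatives were another normalization, filter, test and threshold, a replicate block, and leaving out each library. Tables were handled in Python 3.11.15 with pandas 2.3.3. The p-values rest on 2 mice per group with 1 library per mouse, so spread between mice and between libraries is not separated. DESeq2 and edgeR also draw the spread of each row toward that of the other rows.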

Additional observations from a re-analysis of the deposited data

How the results depend on the processing

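The 5 called sites, all higher in KO, became 1 under edgeR, 2 with independent filtering off, 3 after filterByExpr, 2 at a threshold of 0.05, 1 with a replicate block and 2 under library totals, the last chosen after seeing the data. Leaving out each library gave 0 to 3 called sites: 0 without KO replicate 1, 1 without KO replicate 2 and 3 without either WT library. The first Dst site was called in every alternative run except the replicate block (adjusted p = 0.599) and without KO replicate 1. The second was called under the block (adjusted p = 0.0416). Start site usage of Dst stayed under the threshold with the block (0.0618), and by leave-one-out 0 to 1 genes were called. Replicate numbers share no stated origin, and same-numbered libraries deviated with a correlation of 0.0546 over 12740 sites. Called related genes were 1, with 0 to 1 by leave-one-out and 0 without intronic sites. Called genes among the 6 were 0, and 1 without the leading site (Ank3). Gene log2 fold changes turned for Dst (-0.13 without KO replicate 2, -0.04 without WT replicate 1, up to 0.30 without KO replicate 1), Plec (-0.17 without KO replicate 2 and without the leading site, up to 0.69 without KO replicate 1) and Macf1 (-0.11 without intronic sites). The cause was not tested. Both groups hold 2 libraries, so 1 library decides most single-site calls, and only 47 of the 174 sites could be tested.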
